A study of Homo sapiens with 6 samples.

Results

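Hepatocyte lineage transcription factors and the RNA-binding protein A1CF were followed in the human hepatocellular carcinoma cell line Hep3B after knockdown of DAGLA. The 8 genes were HNF4A, FOXA1, FOXA2, FOXA3, ONECUT1, PROX1, NR5A2 and A1CF, out of 29908 genes in the deposited table. The 7 transcription factors were chosen by function, with earlier results of these data known. A1CF was selected on its higher level in the knockdown cells, so its values are given as a description without a test. DAGLA encodes diacylglycerol lipase alpha, which makes the endocannabinoid 2-arachidonoylglycerol.

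The 3 Hep3B-Con libraries came from Hep3B cells infected with a control lentivirus (shControl), and the 3 Hep3B-KD libraries from Hep3B cells infected with a lentivirus carrying a short hairpin RNA against DAGLA (shDAGLA). Both were infected at a multiplicity of 5 and selected with puromycin as stable cells. The sample titles name the control shControl, whereas the series record calls its vector empty. The paper's methods mention negative sequences bought with the DAGLA plasmids, but the paper does not print them. Whether control cells expressed a hairpin is thus unsettled, and if they did not, the groups also differ in carrying any hairpin at all. The comparison rests on 1 hairpin in 1 cell line, with no second hairpin and no rescue among these libraries. The libraries are labelled as replicates of a group, and where they share a transduced pool, p-values measure only the spread between samples of that pool.

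In the liver, these factors form a network in which members bind each other's regulatory regions as well as the genes of plasma proteins, lipoproteins and bile acid synthesis. HNF4A is a nuclear receptor of differentiated hepatocytes. FOXA1, FOXA2 and FOXA3 are forkhead factors that open chromatin at liver enhancers. ONECUT1 (HNF6) is a cut-homeodomain factor of hepatocytes and bile duct precursors. PROX1 is a homeobox factor of hepatoblasts and lymphatic endothelium that can repress HNF4A and NR5A2, and NR5A2 (LRH-1) is a nuclear receptor of sterol and bile acid metabolism. A1CF is not a transcription factor. It binds apolipoprotein B (APOB) mRNA and serves as a cofactor of the cytidine deaminase APOBEC1.

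The hairpin and the 3′ UTR sites that pair with its seed are shown because HNF4A and A1CF, which moved in opposite directions, each hold such a site. The guide strand is the reverse complement of the hairpin's 19-base target as the study lists it. Capitals mark bases 2 to 8 of the guide and the 7 bases that pair with them.
hairpin target in DAGLA: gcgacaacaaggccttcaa
guide strand: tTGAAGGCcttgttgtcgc
HNF4A 3′ UTR: ttgaagccactGCCTTCAccttcaccttca
A1CF 3′ UTR: tcctgagttctGCCTTCAtatggcagagca
RBM47 3′ UTR: caatggttcgtGCCTTCAttccatctttta
CEBPA 3′ UTR: ttgtactgtatGCCTTCAgcattgcctagg
The longest annotated 3′ UTR of HNF4A holds 2 such matches, of which the one nearer the stop codon is printed, and that of A1CF holds 1. The other 6 genes hold 0. Of 11184 tested genes with a 3′ UTR, 14.5% hold at least 1 match.

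Promoter windows are shown for HNF4A, A1CF and ONECUT1, which had the only called fall and the 2 largest increases of the 8 genes. Each RefSeq window (GRCh38.p14) runs from 250 bases before to 50 after a transcription start and is printed 5′ to 3′ on the strand of the gene. Capitals mark a FOXA match in A1CF and ONECUT matches in HNF4A.
HNF4A upstream start, chr20:44355449-44355748, plus strand: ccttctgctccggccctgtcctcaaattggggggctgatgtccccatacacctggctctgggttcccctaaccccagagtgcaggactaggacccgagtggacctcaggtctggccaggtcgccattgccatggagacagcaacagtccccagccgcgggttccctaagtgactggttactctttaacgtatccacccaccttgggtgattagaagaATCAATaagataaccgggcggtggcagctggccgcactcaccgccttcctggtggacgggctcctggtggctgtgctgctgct
HNF4A downstream start, chr20:44400989-44401288, plus strand: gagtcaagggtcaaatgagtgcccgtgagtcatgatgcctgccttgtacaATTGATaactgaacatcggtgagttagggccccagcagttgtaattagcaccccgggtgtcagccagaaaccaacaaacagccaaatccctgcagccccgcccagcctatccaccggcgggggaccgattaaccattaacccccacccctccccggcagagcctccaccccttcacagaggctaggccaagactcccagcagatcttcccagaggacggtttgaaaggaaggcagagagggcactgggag
A1CF, chr10:50885578-50885877, minus strand: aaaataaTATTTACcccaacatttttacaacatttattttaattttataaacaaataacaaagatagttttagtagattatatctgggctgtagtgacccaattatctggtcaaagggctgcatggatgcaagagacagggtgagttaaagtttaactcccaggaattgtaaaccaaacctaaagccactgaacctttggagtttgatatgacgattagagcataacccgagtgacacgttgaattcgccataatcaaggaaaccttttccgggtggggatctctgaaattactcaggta
ONECUT1, chr15:52790287-52790586, minus strand: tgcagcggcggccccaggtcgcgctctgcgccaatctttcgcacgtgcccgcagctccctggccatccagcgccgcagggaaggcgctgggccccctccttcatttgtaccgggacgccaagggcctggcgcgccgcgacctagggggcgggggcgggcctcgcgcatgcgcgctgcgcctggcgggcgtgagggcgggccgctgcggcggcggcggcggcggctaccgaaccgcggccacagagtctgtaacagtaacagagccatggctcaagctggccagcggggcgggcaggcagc

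Before any comparison, the targeted gene checked the labels. DAGLA was at 9.42, 9.40 and 9.02 FPKM, a level scaled to exon length and to the depth of the library, in Hep3B-Con replicates 1 to 3. It was at 4.62, 4.46 and 4.78 FPKM in Hep3B-KD replicates 1 to 3, a log2 fold change of -0.99 (SE 0.04, adjusted p = 4.9e-06, limma). Recovered read totals were 15861039 to 17572714 per library. Every log2 fold change below is Hep3B-KD against Hep3B-Con on log2(FPKM + 0.1), and every adjusted p comes from limma, adjusted by Benjamini-Hochberg across the 14147 tested genes. Of these, 60.3% were called at an adjusted p under 0.05, 36.3% as higher and 24.0% as lower in Hep3B-KD. With a fold of at least 2 added, 5.88% were higher and 2.95% lower. Over the tested genes the median log2 fold change was 0.11. With the libraries centred on their median log ratio it was 0.01, and the share of calls that were higher moved from 60.2% to 48.6%.

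All 8 genes were expressed and passed the filter on low values. Of the 7 transcription factors, 5 rose, HNF4A fell and FOXA1 was not called. This is 6 of 7 called, beside 60.3% of all genes tested, and with groups that did not overlap for the same 6, beside 67.2% of all genes. The median log2 fold change of the 7 was 0.47, beside 0.11 for all genes. ONECUT1 was the 1 factor that also passed a fold of at least 2. A1CF, which was chosen for it, was higher by a similar factor.

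**Figure D1:**
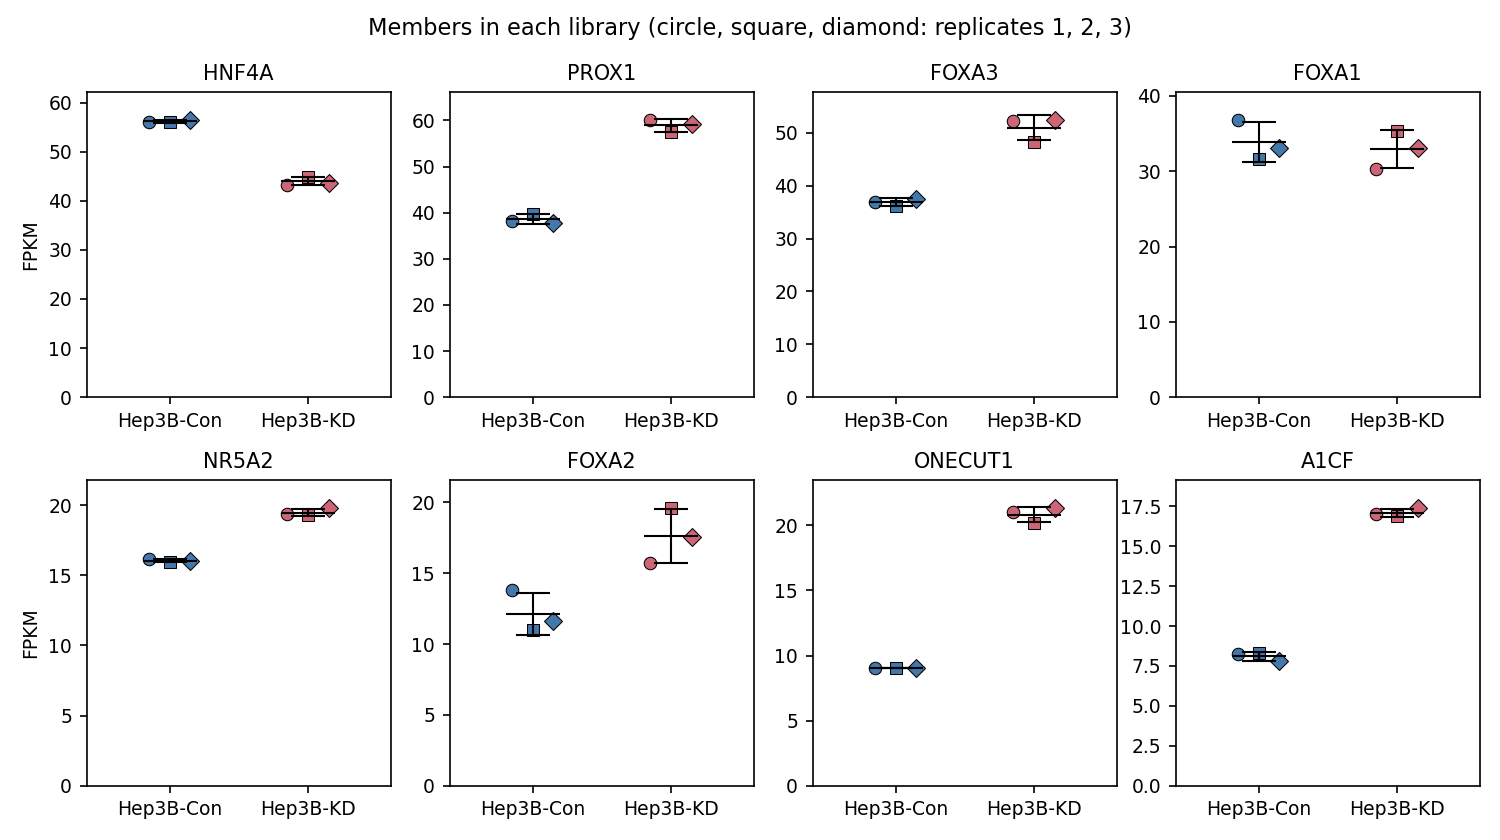
FPKM of the 8 genes (vertical axes, each from 0) in 3 Hep3B-Con (blue) and 3 Hep3B-KD (red) libraries. Points are libraries, horizontal lines are means and bars are SD (n = 3). Groups overlap only for FOXA1. ONECUT1 and A1CF, the latter chosen for its rise, show the largest separation.

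HNF4A (chromosome 20, 44355700 to 44434596, plus strand, by GENCODE 29 on GRCh38) was at 56.1, 56.0 and 56.5 FPKM in the Hep3B-Con libraries. In the Hep3B-KD libraries it was at 43.3, 44.8 and 43.7 FPKM. The knockdown libraries were all below the controls, and HNF4A fell by 0.35 on the log2 scale (SE 0.02, adjusted p = 1.6e-05). Between 5018 and 7202 reads per library lay behind these values. For a single gene, 3 libraries against 3 allow no exact permutation p below 0.1, which every called factor reached. In bulk RNA, fewer cells with a transcript and less transcript per cell cannot be told apart.

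HNF4G, the close paralogue of HNF4A, moved the other way. It was at 2.89, 3.20 and 2.96 FPKM in Hep3B-Con and 3.84, 4.47 and 4.01 FPKM in Hep3B-KD (log2 fold change 0.43, SE 0.08, adjusted p = 0.0024). The HNF4A to HNF4G ratio of FPKM was 18.7 ± 0.997 in the control and 10.7 ± 0.629 in the knockdown libraries (SD, n = 3). HNF4A remained the more abundant of the pair in every library. The longest annotated proteins of the pair share 72.8% of aligned positions.

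The 2 HNF4A transcription starts drive isoforms that differ at the amino terminus, the downstream one being the adult liver promoter. FPKM per gene does not separate them. The ONECUT letters ATCAAT begin at position -33 from the upstream start and, on the other strand, at -200 from the downstream start. Of 35116 promoter windows, 6.26% hold these letters on either strand. The presence of ATCAAT in both HNF4A windows was not tested and is a description only.

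PROX1 (chromosome 1, 213983181 to 214041502, plus strand) took the first place among the 8 genes in Hep3B-KD. It was at 38.2, 39.7 and 37.8 FPKM in Hep3B-Con. In Hep3B-KD it was at 60.1, 57.5 and 59.1 FPKM, and the groups did not overlap. PROX1 rose by 0.61 on the log2 scale (SE 0.03, adjusted p = 5.9e-06), from 5622 to 6167 reads per control library to 8239 to 8762 per knockdown library.

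The order of PROX1 and HNF4A turned in every library. The PROX1 to HNF4A ratio of FPKM was 0.682, 0.709 and 0.670 in Hep3B-Con and 1.39, 1.28 and 1.35 in Hep3B-KD. A ratio within a library does not depend on how libraries are scaled. It shows unequal change of the pair, and both genes also passed the test by themselves.

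PROX1 also marks lymphatic endothelium, so endothelial markers were read beside it. The 6 markers measured (PECAM1, CDH5, VWF, KDR, FLT4 and LYVE1) summed to 0.200 to 0.260 FPKM in Hep3B-Con and 0.278 to 0.403 FPKM in Hep3B-KD. CDH5, VWF, KDR and LYVE1 had at most 3 reads in any library, and PDPN was not analysed here. The antisense transcript PROX1-AS1, which shares 171 exonic bases (1.92%) with PROX1, was at 0.590 to 0.653 FPKM in Hep3B-Con and 0.588 to 0.656 FPKM in Hep3B-KD.

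ONECUT1 showed the largest change of the 7 factors. The gene (chromosome 15, 52756989 to 52791078, minus strand) was at 9.03, 9.03 and 9.04 FPKM in Hep3B-Con. In Hep3B-KD it was at 21.0, 20.2 and 21.3 FPKM. All knockdown values lay above all control values, with a log2 fold change of 1.20 (SE 0.03, adjusted p = 6.2e-07). The mean FPKM was 2.31 times as high in Hep3B-KD, and 612 of the 14147 genes tested (4.33%) had a larger log2 fold change.

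The control values of ONECUT1 lay unusually close together. Their coefficient of variation was 0.0530%, whereas 579 to 611 reads per library alone give 4.09%. In Hep3B-KD the coefficient of variation was 2.77%, beside 2.78% from counting. The control spread of ONECUT1 was thus far under its counting error, and its knockdown spread was near it. Of all tested genes, 0.02% had a smaller coefficient of variation in Hep3B-Con. HNF4A (0.465% beside 1.19%), NR5A2 (0.657% beside 2.19%) and FOXA3 (2.00% beside 2.68%) also spread less than counting gives in Hep3B-Con. FOXA1, FOXA2, PROX1 and A1CF spread more than counting gives.

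ONECUT2, a paralogue with 76.6% identical aligned positions, rose less. It was at 4.27, 4.19 and 4.05 FPKM in Hep3B-Con and 5.77, 5.25 and 5.67 FPKM in Hep3B-KD (log2 fold change 0.41, SE 0.05, adjusted p = 0.00062). The ONECUT1 to ONECUT2 ratio of FPKM was 2.17 ± 0.0584 in the control and 3.75 ± 0.104 in the knockdown libraries (SD, n = 3). ONECUT3 had at most 2 reads in any library. The lincRNA AC016044.1, a neighbour of ONECUT1, was at 20.1, 19.5 and 18.8 FPKM in Hep3B-Con and 26.5, 25.3 and 30.6 FPKM in Hep3B-KD (log2 fold change 0.49, SE 0.07, adjusted p = 0.0010).

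**Figure D2:**
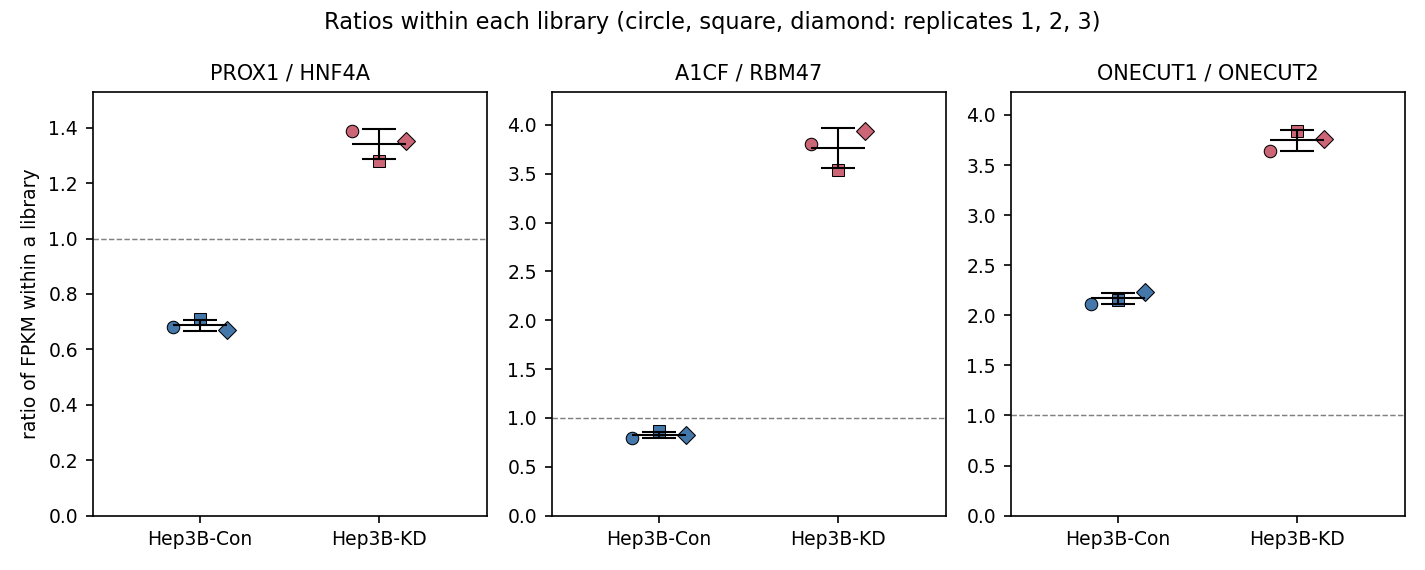
Ratio of FPKM of 2 genes within the same library (vertical axes, from 0) in Hep3B-Con (blue) and Hep3B-KD (red). Points are libraries, lines are means and bars are SD (n = 3), and the dashed line marks a ratio of 1. PROX1 to HNF4A and A1CF to RBM47 lay below 1 in all 3 control libraries and above 1 in all 3 knockdown libraries.

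The 3 FOXA genes did not move together. FOXA3 (chromosome 19, 45863989 to 45873797, plus strand) was at 37.0, 36.1 and 37.5 FPKM in Hep3B-Con. It was at 52.3, 48.2 and 52.5 FPKM in Hep3B-KD, with no overlap and a log2 fold change of 0.47 (SE 0.04, adjusted p = 6.2e-05). FOXA2 (chromosome 20, 22581005 to 22585455, minus strand) was at 13.8, 11.0 and 11.6 FPKM in Hep3B-Con and 15.7, 19.6 and 17.6 FPKM in Hep3B-KD. The FOXA2 groups did not overlap either (log2 fold change 0.54, SE 0.11, adjusted p = 0.0046). FOXA1 (chromosome 14, 37589984 to 37596059, minus strand) was at 36.8, 31.7 and 33.1 FPKM in Hep3B-Con and 30.4, 35.3 and 33.1 FPKM in Hep3B-KD. Its groups overlapped, the log2 fold change was -0.04 (SE 0.07, adjusted p = 0.67), and its sign turned under quantile normalization (0.051). With voom on recovered reads FOXA1 was at -0.17 (adjusted p = 0.0087), the only alternative that called it.

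Summed over the 3 FOXA genes, the level was 82.9 ± 4.48 FPKM in the control and 102 ± 2.79 FPKM in the knockdown libraries (SD, n = 3). FOXA1 gave 40.2 to 42.0% of that sum in the control libraries and 30.9 to 34.3% in the knockdown libraries. FOXA3 gave 42.2 to 45.8% and 46.8 to 53.1%. FOXA3 was the highest of the 3 in every library of both groups. The ranges of FOXA3 and FOXA1 overlapped in the control libraries and not in the knockdown libraries. The proteins resemble each other mainly in 1 stretch. FOXA1 and FOXA3 share 58.0% of all aligned positions and 96 of 100 in their most alike window. FOXA1 and FOXA2 share 64.9% and 94 of 100. FOXA1 and FOXA3 transcripts shared 0 stretches of 50 bases with other genes, and FOXA2 shared 22, all with AL121722.1.

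FOXA1 and FOXA2 spread more between replicates than the other members. Their coefficients of variation were 7.88% and 12.3% in Hep3B-Con and 7.59% and 11.0% in Hep3B-KD, beside 2.08% to 4.29% from counting. The other 6 genes lay between 0.0530% and 4.68%. The same libraries stood out for both: Hep3B-Con replicate 1 was the highest control for FOXA1 and FOXA2, and Hep3B-KD replicate 1 was the lowest knockdown library. KRT19, a keratin of biliary and progenitor epithelium, showed the same extremes, at 150, 109 and 118 FPKM in Hep3B-Con and 150, 186 and 182 FPKM in Hep3B-KD. So did the liver factor CEBPD, at 4.73, 2.56 and 2.29 FPKM and at 5.04, 8.69 and 7.39 FPKM. KRT19 and CEBPD were picked for this after their values were seen. Without Hep3B-Con replicate 1 the log2 fold change of FOXA1 was 0.023, and without Hep3B-KD replicate 1 it was 0.018. The part of these libraries in the result was not tested further.

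NR5A2 (chromosome 1, 200027602 to 200177424, plus strand) changed least among the called factors. It was at 16.1, 15.9 and 16.0 FPKM in Hep3B-Con. In Hep3B-KD it was at 19.3, 19.3 and 19.8 FPKM, with no overlap and a log2 fold change of 0.28 (SE 0.03, adjusted p = 1.1e-04). With the shift of all genes removed, the value was 0.17 after centring on the median (adjusted p = 0.0011), and it was 0.15 with voom on recovered reads (adjusted p = 4.4e-04). NR5A1, its paralogue in steroidogenic tissue, had at most 2 reads in any library.

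A1CF (chromosome 10, 50799409 to 50885675, minus strand) was at 8.22, 8.30 and 7.80 FPKM in Hep3B-Con. In Hep3B-KD it was at 17.0, 16.9 and 17.4 FPKM. The mean FPKM was 2.11 times as high in Hep3B-KD, with 1246 to 1387 reads per control library and 2595 to 2770 per knockdown library. The log2 fold change was 1.07 (SE 0.04), and 831 of 14147 genes tested (5.87%) had a larger one. It ranged from 0.94 to 1.09 over the 17 alternatives. These refit the libraries in which A1CF was chosen for its rise, so the range is a description only. A1CF shares 378 exonic bases (3.94%) with ASAH2B on the other strand, which was at 1.06 to 1.64 FPKM in Hep3B-Con and 0.848 to 1.15 FPKM in Hep3B-KD.

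RBM47, the paralogue of A1CF and like it a cofactor of APOB mRNA editing, moved in the opposite direction. It was at 10.3, 9.64 and 9.42 FPKM in Hep3B-Con and 4.47, 4.77 and 4.41 FPKM in Hep3B-KD. RBM47 fell by 1.09 on the log2 scale (SE 0.05, adjusted p = 6.8e-06), with no overlap between the groups. The A1CF to RBM47 ratio of FPKM was 0.798, 0.862 and 0.827 in Hep3B-Con and 3.81, 3.54 and 3.94 in Hep3B-KD. RBM47 was the more abundant cofactor in all 3 control libraries and A1CF, chosen for its rise, in all 3 knockdown libraries. Their sum changed less, from 17.9 ± 0.651 (SD, n = 3) to 21.6 ± 0.142 (SD, n = 3) FPKM. The proteins share 56.8% of aligned positions, and 88 of 100 in their most alike window.

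APOB, whose mRNA A1CF binds and which encodes the structural protein of low-density lipoproteins, was also higher. It was at 85.3, 86.7 and 86.3 FPKM in Hep3B-Con and 203, 195 and 198 FPKM in Hep3B-KD (log2 fold change 1.20, SE 0.02, adjusted p = 1.1e-07). The list of APOB editing partners held 9 genes, of which 8 were in the table and 7 were tested. Of all genes tested, 36.3% were called higher and 24.0% lower. In this list 2 genes were called higher (APOB and HNRNPAB), 4 lower and BAG4 neither, with a median log2 fold change of -0.14. The lower genes were RBM47, SYNCRIP (-0.14), KHSRP (-0.17) and DNAJB11 (-0.18). SYNCRIP and KHSRP were not called under quantile normalization (adjusted p = 0.44 and 0.90). APOBEC1 was not analysed here, and FPKM holds no information on editing itself.

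Seed matches stood beside both directions. HNF4A, RBM47 and the liver factor CEBPA, each with a match, fell. CEBPA was at 33.7, 32.0 and 33.6 FPKM in Hep3B-Con and 14.7, 16.1 and 15.1 FPKM in Hep3B-KD (log2 fold change -1.11, SE 0.04, adjusted p = 2.5e-06). A1CF and ONECUT2, with 1 and 2 matches, were higher in Hep3B-KD. APOB, GATA4, MTTP, CREB3L3 and NR1H4, which rose, hold 0. The genes outside the 8 were looked up with their values known. The 3′ UTRs searched in these genes differed in length, from 566 bases in ONECUT1 to 14574 in ONECUT2. No comparison of matches was adjusted for length. The median log2 fold change was -0.04 for the 1627 tested genes with a match and 0.11 for those without. The part of the hairpin's seed in the members' changes was not tested.

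**Figure D3:**
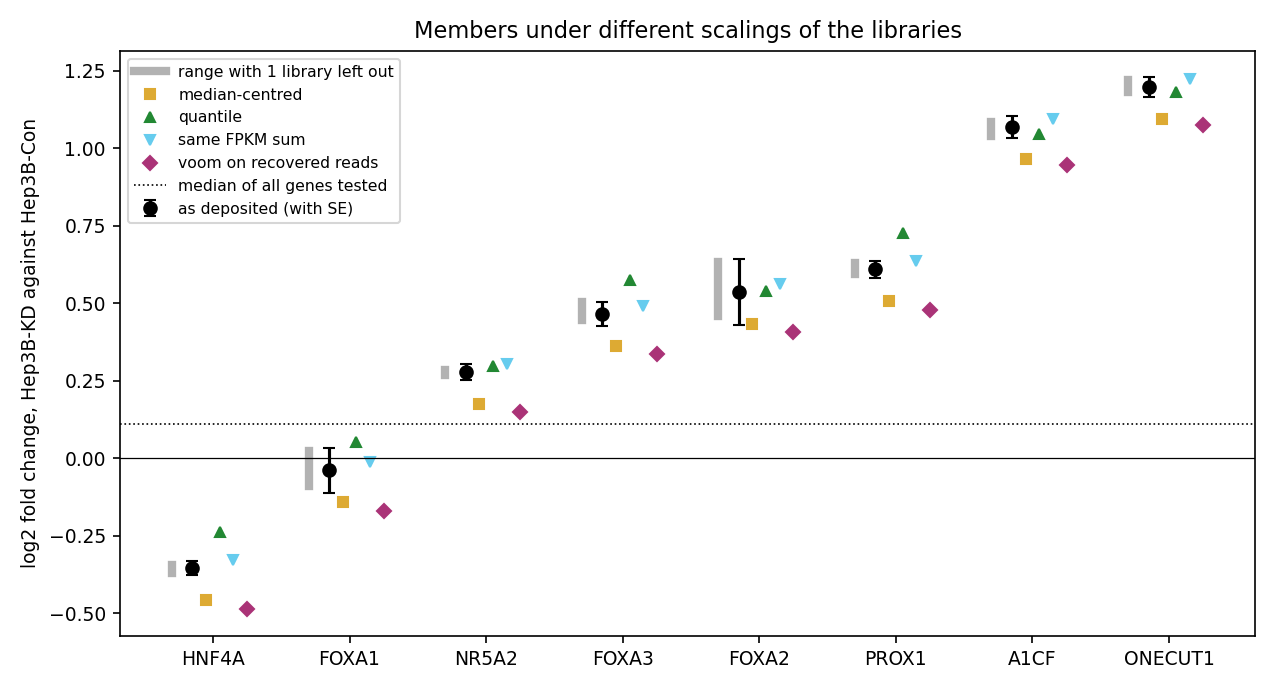
Log2 fold change of the 8 genes (vertical axis, Hep3B-KD against Hep3B-Con) under 5 scalings of the libraries. Black points carry the SE, grey bars span the 6 fits with 1 library left out, and the dotted line is the median of all genes (0.11). Every scaling kept HNF4A below 0 and NR5A2, FOXA3, FOXA2, PROX1, ONECUT1 and A1CF (chosen for its rise) above 0. FOXA1 lay on either side.

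In Hep3B-Con the levels ran HNF4A, PROX1, FOXA3, FOXA1, NR5A2, FOXA2, ONECUT1 and A1CF, from 56.2 to 8.11 FPKM in the mean. Only the ranges of FOXA3 and FOXA1 overlapped between neighbours. In Hep3B-KD the order was PROX1, FOXA3, HNF4A, FOXA1, ONECUT1, NR5A2, FOXA2 and A1CF, from 58.9 to 17.1 FPKM. There the ranges of NR5A2 and FOXA2 and of FOXA2 and A1CF overlapped.

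The profiles most like A1CF over the 6 libraries, by Euclidean distance of mean-subtracted log2(FPKM + 0.1), were ETAA1 (distance 0.051), MRTFB (0.053) and NBPF14 (0.054). NBPF14 belongs to a family of near-identical copies, so its value is uncertain. ETAA1 was at 1.38 ± 0.0510 and 2.97 ± 0.0896 FPKM (SD, n = 3) in Hep3B-Con and Hep3B-KD, and MRTFB at 2.60 ± 0.108 and 5.55 ± 0.0913 FPKM. The profiles most like HNF4A were SDAD1 (distance 0.033), ADAM15 (0.036) and DDX54 (0.037). ADAM15 was at 8.99 ± 0.0684 and 7.02 ± 0.0354 FPKM (SD, n = 3), and DDX54 at 23.4 ± 0.317 and 18.2 ± 0.184 FPKM.

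Among 18 other liver transcription factors, all tested, 12 rose, 5 fell and RXRA was not called, with a median log2 fold change of 0.48. Beside these counts, 36.3% of all tested genes were called higher and 24.0% lower. The higher genes numbered 10 with voom on recovered reads. RXRA was called lower after median centring (-0.19, adjusted p = 0.0040) and with voom (-0.22, adjusted p = 4.6e-06). It was also called lower without Hep3B-Con replicate 2 (-0.12, adjusted p = 0.018). CEBPD lost its call without Hep3B-Con replicate 2, Hep3B-KD replicate 2 or Hep3B-KD replicate 3 (adjusted p = 0.053, 0.052 and 0.050). GATA4 and GATA6, zinc finger factors of early liver development, were at 20.3 ± 0.534 and 3.03 ± 0.377 FPKM in Hep3B-Con and 39.3 ± 1.39 and 7.08 ± 0.413 FPKM in Hep3B-KD (SD, n = 3). HHEX, a homeobox factor of the liver bud, rose by 0.75 on the log2 scale (SE 0.04, adjusted p = 1.1e-05). NR1H4, the bile acid receptor, rose by 1.24 (SE 0.06, adjusted p = 5.7e-06). CREB3L3, a membrane-bound factor of hepatic lipid metabolism, was at 1.02 ± 0.0692 and 4.76 ± 0.285 FPKM and had the largest rise of the list, 2.12. The 5 that fell were CEBPA, ATF5 (-0.60), XBP1 (-0.50), CEBPB (-0.46) and NFIC (-0.26).

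The cofactors held 12 genes, of which 11 were tested, 7 rose, 3 fell and EP300 was not called. Over all genes tested, 36.3% were called higher and 24.0% lower. NRIP1 and NCOA3, which bind nuclear receptors as a corepressor and a coactivator, were at 3.42 ± 0.271 and 6.05 ± 0.311 FPKM in Hep3B-Con and 8.07 ± 0.479 and 11.8 ± 0.491 FPKM in Hep3B-KD (SD, n = 3). PPARGC1A, a coactivator of HNF4A, was at 0.512 ± 0.103 and 1.12 ± 0.0460 FPKM. NR0B2 (SHP), a repressor of HNF4A and NR5A2, was at 32.4 ± 0.875 and 28.1 ± 2.20 FPKM (log2 fold change -0.21, SE 0.06, adjusted p = 0.018). The count of lower genes dropped from 3 to 1 without Hep3B-Con replicate 1, without Hep3B-Con replicate 3 or without Hep3B-KD replicate 2, in each case through NR0B2 and HDAC3. HDAC3 also lost its call without Hep3B-KD replicate 3, with no filter and with the same FPKM sum (adjusted p = 0.096, 0.061 and 0.060). NR0B2 lost it with quantile normalization (adjusted p = 0.076). EP300 was called lower after median centring (-0.092, adjusted p = 0.033) and with voom on recovered reads (-0.12, adjusted p = 7.5e-04). NCOR1, among the genes that rose, was not called under either of those settings (adjusted p = 0.13 and 0.33).

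HNF4A fell, and the genes it is known to bind were read beside it. Of 25 such genes, 23 were in the table and 16 were tested, of which 13 rose and 3 fell, with a median log2 fold change of 0.51. Of all tested genes 36.3% were called higher and 24.0% lower, with a median of 0.11, and the difference of the list from other genes was not tested. MTTP, which loads lipid onto APOB, was at 5.98, 5.97 and 5.99 FPKM in Hep3B-Con and 15.8, 16.1 and 15.5 FPKM in Hep3B-KD (log2 fold change 1.39, SE 0.03, adjusted p = 3.8e-07). APOC3 rose by 1.18, TTR (transthyretin) by 0.96 and F7 (coagulation factor VII) by 0.52. PKLR, the liver pyruvate kinase, was the largest fall at -0.81 (SE 0.16, adjusted p = 0.0040), followed by APOM (-0.38) and PROC (-0.19). The call of PROC was lost without any 1 of 5 libraries, all but Hep3B-KD replicate 3 (adjusted p = 0.060 to 0.12). It was also lost with no filter or with libraries scaled to the same FPKM sum (adjusted p = 0.084 and 0.080). Without the eBayes trend or with a replicate block, PROC was not called either (adjusted p = 0.073 and 0.071). APOA4, G6PC, CYP3A4, CYP7A1 and CYP8B1 had at most 3 reads in every library, so products of mature hepatocytes such as the bile acid enzyme CYP7A1 were not detectable at this depth in either group.

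The 4 tested FOXA targets, ALB, AFP, TTR and SERPINA1, all rose, with a median log2 fold change of 0.63. The median of all genes tested was 0.11, with 36.3% called higher and 24.0% lower. ALB (albumin) was at 2042 ± 25.9 FPKM in Hep3B-Con and 3315 ± 6.90 FPKM in Hep3B-KD, and AFP (alpha-fetoprotein), its fetal counterpart, at 51.9 ± 0.716 and 77.0 ± 0.697 FPKM (SD, n = 3). SERPINA1 rose by 0.13 and was not called after median centring (0.026, adjusted p = 0.13) or with voom on recovered reads (-0.0026, adjusted p = 0.88). The other 5 listed FOXA targets in the table lay below the filter and were not tested. TAT (means 0.244 and 0.167 FPKM) and IGFBP1 (0.577 and 0.389 FPKM) were lower in Hep3B-KD, with groups that overlapped. CPS1 (0.105 and 0.166 FPKM) and PDK4 (0.206 and 0.488 FPKM) were higher, without overlap. G6PC had at most 3 reads in any library. Of 10 NR5A2 targets, 4 were tested, with AFP and APOA1 higher and SCARB1 and NR0B2 lower. The call of NR0B2 was lost without Hep3B-Con replicate 1, Hep3B-Con replicate 3 or Hep3B-KD replicate 2, which left 1 lower target. SCARB1, the high-density lipoprotein receptor, was at 33.0 ± 1.29 and 20.8 ± 1.05 FPKM (log2 fold change -0.67, SE 0.05, adjusted p = 3.0e-05). Several target genes stand in more than 1 list, and many are known targets of other liver factors as well.

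The labelled cell type was checked on markers. Beside their counts, 36.3% of all tested genes were called higher, 5.88% with a fold of at least 2, and 24.0% lower. All 10 hepatocyte markers were expressed, and 8 rose (3 with a fold of at least 2: APOB, APOH and AMBP) while AHSG and FGB fell. Their summed level was 3796 to 3857 FPKM in Hep3B-Con and 6216 to 6264 FPKM in Hep3B-KD. Of 7 biliary or progenitor markers 6 were tested, of which 5 rose (EPCAM, CD24, PROM1, SOX9 and KRT19) and KRT7 fell. SPP1, which lay below the filter, was lower in Hep3B-KD, at 0.595 ± 0.104 and 0.274 ± 0.0879 FPKM (SD, n = 3). Behind these values were 20 to 27 reads per control library and 7 to 14 per knockdown library. The call of KRT19 was lost without replicate 2 or 3 of either group (adjusted p = 0.059 to 0.063) and with a replicate block (adjusted p = 0.059). The sum of the list was 650 to 691 FPKM in Hep3B-Con and 856 to 886 FPKM in Hep3B-KD. The 3 tested fibroblast markers, LUM, PDGFRB and COL1A1, fell, with a list sum of 9.28 to 10.2 and 5.48 to 5.96 FPKM, while COL3A1 and DCN had at most 2 reads in any library. Markers of pancreas or gut summed to 1.40 to 1.71 and 1.04 to 1.57 FPKM, almost wholly SOX2, and PTPRC of blood cells to at most 0.0377 FPKM. The part of these marker levels in the changes of the 8 genes was not tested.

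Across the promoter windows of the 6 members that have one, matches to the fixed letters were few. The letters searched on both strands were CAAAGTCCA (HNF4), TGTTTAC and TATTTAC (FOXA), ATCAAT (ONECUT), TCAAGGTCA (NR5A2) and GGAATG (TEAD). In 8 windows there were 4 matches: TATTTAC at position -243 from the start of A1CF, TGTTTAC on the other strand at -105 from the second start of NR5A2, and ATCAAT at both starts of HNF4A. Among all 35116 windows, 2.67% hold TATTTAC, 3.42% TGTTTAC, 0.384% the HNF4 letters, 0.353% the NR5A2 letters and 14.0% the TEAD letters. ONECUT1 and FOXA3, which rose, and FOXA1, which was not called, have windows of 75.0%, 76.3% and 69.3% GC with 39, 37 and 34 CpG sites, whereas that of A1CF has 36.7% GC and 5 CpG sites. The windows of NR5A2, which also rose, have 36.7% and 52.7% GC with 0 and 16 CpG sites. Those of HNF4A have 60.0% and 57.7% GC with 11 and 9 CpG sites. ONECUT1 and A1CF, with the 2 largest increases, differed widely in base composition, but A1CF was chosen for its increase.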

How the data were processed

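Gene expression was measured in 6 mRNA libraries of Hep3B cells. The authors deposited FPKM values for 29908 Ensembl genes, 1 column per library, with 0 further value columns. The submitters' notes name TopHat2 2.0.12, Bowtie2 2.0.6 and the build GRCh37. The counting tool is not given in the sources used here. All identifiers were found in GENCODE 29 (GRCh38), and with its exon lengths 100% of values came out within 0.01 of whole reads. Coordinates are therefore those of GRCh38 annotation. Whether counting used strand is not given in the sources used here.

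The 8 members were found by symbol. Values were tested as log2(FPKM + 0.1) for the 14147 genes averaging 0.5 FPKM or more, the row with the highest mean standing for a repeated symbol (382 rows). The test was limma 3.58.1 (lmFit, eBayes with trend) in R 4.3.3, without a block, with Benjamini-Hochberg adjustment, and the fit was tested on simulated data. The pseudocount understates changes of low genes. Members and lists were chosen with earlier results of these data known, and a few planned items are not reported here. Named genes were the members, DAGLA, genes of the lists, overlapping or neighbouring genes and the 3 genes nearest to A1CF and to HNF4A in profile.

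Within a group, libraries differed by more than sampling noise (chi-square per degree of freedom 1.78 to 3.47, between groups 69.7 to 72.7). A gene with at most 3 reads in every library was read as not detectable, and such limits cover counting error only. Alternatives were other filters, pseudocounts and scalings, voom with a TMM factor on recovered reads, the replicate number as a block and each library left out. Seed matches were sought in 3′ UTRs of at least 50 bases from GENCODE 29. Promoter windows are RefSeq's, and none was matched for FOXA2 and PROX1. Protein identities came from global alignments of translated GENCODE coding sequences (Biopython 1.88). Tables were handled in Python 3.11.15 with pandas 2.3.3.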

Additional observations from a re-analysis of the deposited data

How the results depend on the processing

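Over the 17 alternatives, HNF4A ranged from -0.49 to -0.24 on the log2 scale, FOXA2 from 0.41 to 0.63, FOXA3 from 0.34 to 0.57, ONECUT1 from 1.07 to 1.22, PROX1 from 0.48 to 0.73 and NR5A2 from 0.15 to 0.30, each with its direction and call kept. FOXA1 turned to 0.051 with quantile normalization (adjusted p = 0.57), lay between -0.091 and 0.023 with 1 library left out, and was called at -0.17 with voom on recovered reads, which made 2 factors lower in place of 1. A1CF was 0.99 with a pseudocount of 1, 0.96 after median centring and 0.94 with voom. Genes called at a fold of at least 2 numbered 495 with a pseudocount of 1, in place of 1249, and 1200 to 1255 with 1 library left out. With 1 library left out, the lower cofactors numbered 1 to 3 and the lower NR5A2 targets 1 to 2. Quantile normalization left 2 of the 4 lower APOB editing partners and 1 of the 2 lower NR5A2 targets. Higher calls were 60.2% of all calls as deposited, 48.6% after median centring, 52.2% with quantile normalization and 46.6% with voom. The replicate numbers did not pair the libraries (correlations of same-numbered deviations -0.065 to -0.0009), and with the number as a replicate block 7942 genes were called in place of 8529, while HNF4A stayed at -0.35 and ONECUT1 at 1.20. Levels as TPM left the count of overlapping neighbours at 3, and any annotated 3′ UTR left the members with a seed match at 2. The cause of these differences was not tested. With 3 libraries a group and 1 hairpin, changes due to the hairpin and due to less DAGLA cannot be told apart.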
